A study of Mus musculus with 5 samples.

Results

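The cells described here were cycling monocytes of mouse bone marrow (BM) that carried little RNA for the azurophil granule proteases. They were taken from 2 libraries of sorted CD11b+Ly6Chi cells, 1 from naive mice and 1 from mice given cyclophosphamide (CTX). A cell was a member when it had at least 2 unique molecular identifiers (UMIs, 1 per captured RNA molecule) of Mki67 and Top2a together, less than 0.1% of its UMIs from Mpo, Elane, Prtn3 and Ctsg, less than 1% from the specific granule genes Ngp, Camp and Ltf, and fewer than 10 UMIs of the class II genes H2-Aa, H2-Ab1 and H2-Eb1. Barcodes under 200 genes, or with 20% or more of their UMIs from mitochondrial genes, were left out first. The rule found 362 members among 1891 kept cells of the naive library and 501 among 2564 of the CTX library, which is 863 of 4455 sorted cells and of 25975 kept cells in all 5 libraries. The members were thus chosen by measured values of these genes, and the levels of these genes are a description and not a finding.

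The naive group was untreated and the CTX group received 150 mg/kg CTX by intraperitoneal injection. The mice were BALB/c animals aged 4 to 8 weeks, and the labels name no transgene or engineered allele. The other 3 libraries were whole BM without a sort, from naive mice and from mice taken 2 days (D2 CTX) or 7 days (D7 CTX) after the dose, each a pool of equal cell numbers from 3 mice. The shared protocol does not say whether the sorted cells were pooled in the same way, and the label of the sorted CTX library carries no day, while the account of the sort places it 7 days after the dose. The sorted libraries held 2223 barcodes with 22694817 UMIs (naive) and 2978 barcodes with 29139672 UMIs (CTX), and 2 barcode sequences occurred in both. The study describes more sorted cells than these barcodes, a difference that was not resolved, so member shares hold for the cells analysed here. With 1 library per condition there was no replicate, no test was possible, and every interval below is a 95% interval that covers counting error only.

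Classical monocytes arise in BM from dividing precursors, and the last divisions take place in cells that already carry monocyte surface proteins. Mki67 encodes Ki-67, a protein that coats the chromosomes of dividing cells, and Top2a encodes topoisomerase II alpha, which untangles replicated DNA before mitosis. Mpo (myeloperoxidase), Elane (neutrophil elastase), Prtn3 (proteinase 3) and Ctsg (cathepsin G) are stored in azurophil granules and are transcribed in granulocyte and monocyte precursors. CTX is an alkylating agent that kills dividing cells, after which the marrow refills from surviving progenitors.

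Genes of the late cell cycle share a promoter layout with CCAAT boxes, bound by NF-Y, near a cell cycle genes homology region (CHR, TTTGAA), bound by the DREAM and MuvB complexes. The 200 bases before the start in the RefSeq promoter table are shown for Top2a, a gene of the rule, and for Cdk1, because their levels set the members apart. Capitals mark CCAAT and TTTGAA on either strand (ATTGG and TTCAAA in reverse), and no match overlapped another. Top2a lies on the minus strand of chr11 (window chr11:99024190-99024389) and Cdk1 on the minus strand of chr10 (window chr10:69352913-69353112), both in GRCm38.p6. Other annotated starts lie further upstream, so that 10 bases of the Top2a window are inside the RefSeq gene and 26 bases of the Cdk1 window inside the GENCODE gene, and distances count from the start in the table.
Top2a: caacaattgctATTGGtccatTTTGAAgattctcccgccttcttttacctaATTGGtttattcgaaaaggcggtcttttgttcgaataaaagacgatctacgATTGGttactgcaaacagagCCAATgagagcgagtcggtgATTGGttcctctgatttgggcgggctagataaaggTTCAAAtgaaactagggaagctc
Cdk1: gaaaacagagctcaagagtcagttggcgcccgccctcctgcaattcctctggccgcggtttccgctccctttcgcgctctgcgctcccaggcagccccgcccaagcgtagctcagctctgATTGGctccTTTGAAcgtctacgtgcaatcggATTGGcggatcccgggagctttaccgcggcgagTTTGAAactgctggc
Both windows held 2 CHR matches, and in Top2a and Cdk1 the nearer began 23 and 15 bases before the start. Top2a held 5 CCAAT matches and Cdk1 2. Windows of the same length that are not shown did not all have this layout. Mki67 held 2 CHR and 3 CCAAT matches, Ccnb1 held 2 CCAAT matches and no CHR match, and Nusap1 held neither. A list of 52 G2/M genes had promoters for 45 genes (86.5%, 50 promoters, 250 bases before to 50 after the start). TTTGAA was in 32 of these 50 promoters (64%) against 5878 of all 32851 (17.9%), and CCAAT was in 37 (74%) against 12289 (37.4%). These matches describe the letters in the window and do not show binding.

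Most members lay above the limit of 2 UMIs of Mki67 and Top2a by which they were chosen, with lower quartiles of 4 UMIs (naive) and 5 UMIs (CTX). Mki67 and Top2a together gave a median of 17 UMIs per naive member (range 2 to 120) and 19 per CTX member (range 2 to 114). Both genes were present in 270 naive and 398 CTX members, Mki67 alone in 85 and 100, and Top2a alone in 7 and 3. Just inside the limit, 56 naive and 57 CTX members had exactly 2 UMIs. Just outside it, 129 and 200 azurophil-low cells had 1 UMI, while 1018 and 1164 had none. On the granule side, 112 naive and 153 CTX members had 0.05 to below 0.1% azurophil UMIs, and 83 and 179 cycling cells with 0.1 to below 0.2% fell outside. The members were also deeper than non-cycling azurophil-low cells and less deep than azurophil-rich cycling cells, with a median of 15614 UMIs per naive and 14221 per CTX member against 9146 and 8490.5 in the former and 19559.5 and 16608 in the latter. As a measure of stray UMIs, mature neutrophils of the whole BM libraries, which do not divide, had 2 or more Mki67 and Top2a UMIs in 2 of 39 naive cells (5.13%, exact interval 0.627 to 17.3), 1 of 105 D2 CTX cells (0.952%) and 3 of 216 D7 CTX cells (1.39%), at a median of 3599, 3756 and 3731 UMIs.

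The member shares of the naive and CTX sort differed by less than their counting error. They were 19.1% of kept naive cells (exact binomial interval 17.4 to 21.0) and 19.5% of kept CTX cells (18.0 to 21.1), a log2 ratio of 0.03 (-0.17 to 0.23). When each cell was thinned to 5000 UMIs, which left out 161 naive and 224 CTX cells, the shares were 15.03% and 16.03%. The cycling cells above the azurophil limit went from 14.5% of naive to 20.3% of CTX cells (log2 0.49, 0.27 to 0.70), and the non-cycling azurophil-low cells from 60.7% to 53.2% (log2 -0.19, -0.30 to -0.07). The members were thus 56.9% of naive cycling cells (52.97 to 60.8) and 49.0% of CTX cycling cells (45.9 to 52.1), and 23.99% and 26.9% of azurophil-low cells. Mpo, which the rule used, had 12.01 CPM (UMIs of the gene, scaled to a total of 1000000) in naive members and 12.7 CPM in CTX members, against 1007 and 1086 CPM in the azurophil-rich cycling cells.

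The monocyte label was checked against genes that define classical monocytes. Ly6c2, which encodes the sorted antigen Ly6C, was found in 98.6% of naive and 98.4% of CTX members, and Ccr2, the receptor that lets monocytes leave the marrow, in 99.2% and 98.6%. Lyz2 (lysozyme) was found in 100% and 99.6%, and F13a1 (coagulation factor XIII A) in 99.2% and 98.8%. Csf1r, the receptor for the monocyte growth factor CSF1, was found in 81.2% and 74.5%, and Itgam, which encodes the sorted antigen CD11b, in 72.4% and 65.1%. Fcgr1, the high-affinity IgG receptor, was found in only 23.5% and 18.0%, and at least 3 of Ly6c2, Ccr2, Csf1r and Fcgr1 were found in 84.0% and 77.8%. Shares with a UMI include stray UMIs and rise with depth. In 214 B-lineage cells of D7 CTX whole BM (at least 5 UMIs of Cd79a and Cd79b), which should lack these genes, Lyz2 was found in 66.4%, Ly6c2 in 21.0%, Itgam in 15.4%, F13a1 in 11.2%, Ccr2 in 4.21% and Csf1r in 1.87%, at a median of 8873.5 UMIs against 15614 and 14221 in members. In level, Lyz2 was at 1320 CPM in these B-lineage cells against 22734 and 23365 CPM in members, Ly6c2 at 84.0 against 816 and 772 CPM, and Ccr2 at 11.5 against 889 and 912 CPM. In the sorted libraries 8 naive and 6 CTX cells met the same B-lineage limit, and Lyz2 had a UMI in 8 and 3 of them. Ly6c2 was found in 4 of the 8 naive cells, at 705 CPM over all 8, and in 1 of the 6 CTX cells, at 10.4 CPM, so Ly6c2 alone does not set members apart from these cells. Cd3e and Trac, which mark T cells, and C1qa, which marks macrophages, were at 0 in members of both libraries, but other genes of these lists were not. A list of 9 macrophage genes summed to 69.4 CPM in naive and 53.1 CPM in CTX members, with Hmox1 highest at 35.1 and 25.1 CPM. A list of 7 plasmacytoid dendritic cell genes summed to 116 and 102 CPM, with Bst2 highest at 74.4 and 57.5 CPM. Summed over each list, 8 B cell genes gave 27.8 CPM in naive and 61.1 CPM in CTX members (Cd79b highest in both), 8 T and NK cell genes 1.43 and 19.3 CPM (Gzma at 13.1 CPM in CTX), 8 erythroid genes 0.897 and 8.75 CPM, and 10 neutrophil genes, 3 of them specific granule genes of the rule, 74.6 and 71.9 CPM (mostly Csf3r). The part of these other cells in the comparisons below was not tested.

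1 naive member stood apart from the rest. Of the 15735 Igkc UMIs in all naive members this cell held 15668, with 4214 UMIs of Ighm and 297 of Iglc2, so that Igkc was 49.5% of its 31678 UMIs. Ccr2, Csf1r and Itgam were at 0 in it, with 18 UMIs of Ly6c2 and 3 of Mki67. Immunoglobulin values are therefore set by 1 cell and are not read as a difference between the libraries. Without it, the number of genes past the fold in CTX over naive members was 5 higher and 24 lower.

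What separated members from their non-cycling neighbours was first the mitotic machinery. Ndc80, part of the outer kinetochore, had 80.2 CPM in naive members and 107 CPM in CTX members against 0.194 and 0.704 CPM in non-cycling azurophil-low cells. Esco2, a cohesin acetyltransferase, had 75.9 and 97.4 CPM against 0.291 and 0.176 CPM. Nusap1, which bundles spindle microtubules, had 235 and 292 CPM against 2.23 and 1.06 CPM. Kif11, the motor that pushes spindle poles apart, had 162 and 172 CPM against 0.485 and 1.06 CPM. Prc1, which crosslinks the midzone, had 263 and 301 CPM against 1.26 and 2.73 CPM, and Cdk1, the kinase that drives mitosis, had 199 and 228 CPM against 1.84 and 2.03 CPM. These genes move with Mki67 and Top2a, by which the cells were chosen.

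A gene was compared when it had at least 200 UMIs over both groups and at least 20 CPM in 1 of them, and was called past the fold when the log2 ratio with 1 CPM added to each side was at least 1. The printed log2 ratios have nothing added. Of 5690 genes compared in the naive library 398 were higher in members (6.99%) and 165 lower (2.9%), 9.89% in all. Of 5825 in the CTX library 489 were higher (8.39%) and 151 lower (2.59%), 11% in all. Among 5541 genes compared in both, 362 were higher and 105 lower in both libraries, which is 92.1% of the naive and 86.8% of the CTX higher calls, and 78.4% and 73.4% of the lower calls. All 47 G2/M genes compared in the naive library and all 49 in the CTX library were past the fold, with medians of 4.31 and 4.36. S-phase genes had medians of 2.57 (31 genes, 27 past the fold) and 2.69 (33 genes, 29 past the fold). The median of all genes was 0.03 and 0.02. Chromatin genes of the list with PRC2 and DNA methylation factors had medians of 1.09 and 1.09, with Ezh2, the H3K27 methyltransferase, at 183 and 204 CPM against 27.6 and 30.0 CPM.

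The genes furthest below non-cycling cells included Apoe, Socs3 and interferon-induced genes. Apoe, the lipid carrier of mature monocytes and macrophages, had 80.3 CPM in naive members and 90.9 CPM in CTX members against 1155 and 815 CPM in non-cycling cells. Socs3, a feedback inhibitor of cytokine signals, had 8.07 and 5.10 CPM against 94.3 and 36.4 CPM. Slfn5, an interferon-induced Schlafen gene, had 37.8 and 35.0 CPM against 238 and 196 CPM, and Rtp4, another interferon target, 5.02 and 2.33 CPM against 50.7 and 26.0 CPM. Retnlg had 0.359 and 1.60 CPM against 90.7 and 100.8 CPM, and it is also abundant in neutrophils. The 10 neutrophil genes summed to 74.6 and 71.9 CPM against 264 and 276 CPM in non-cycling cells. Of those outside the rule 3 and 2 were compared, with medians of -2.41 and -3.14 and none above 0. The part of neutrophil RNA in this comparison was not tested. None of the 15 interferon genes compared in the naive library or the 12 in the CTX library was above 0, with medians of -1.01 and -0.84 and 8 and 2 genes past the fold. Irf7, which amplifies the interferon response, was at 58.6 and 52.5 CPM against 160 and 104 CPM. Chemokine ligands had medians of -1.09 (8 genes) and -1.07 (6 genes), with none above 0.

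**Figure D1:**
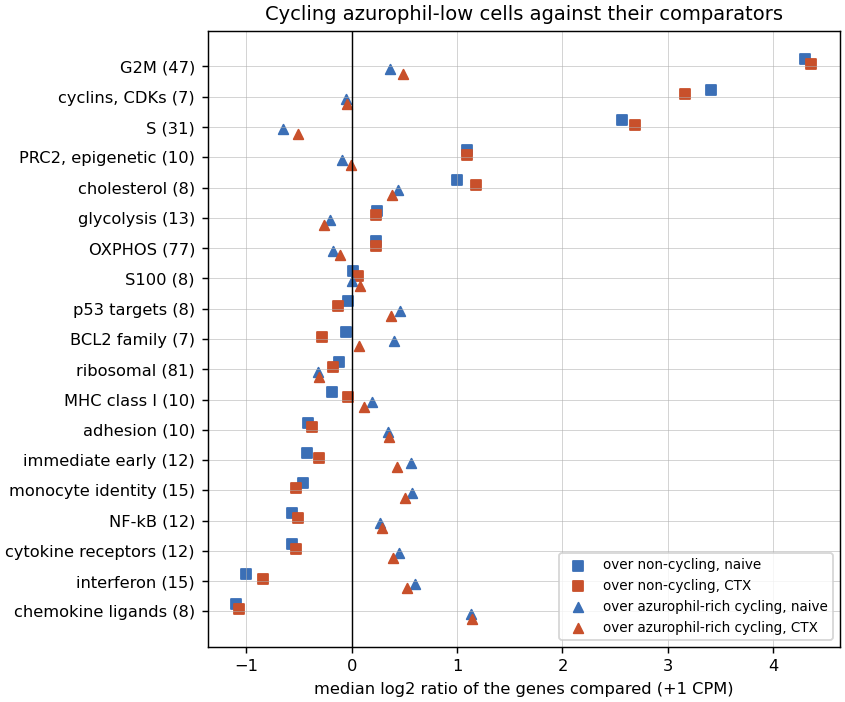
Median log2 ratio of the members over non-cycling azurophil-low cells and over azurophil-rich cycling cells (x axis), by gene list (y axis), in the naive and CTX libraries. The G2/M list lies at 4.31 and 4.36 over non-cycling cells and at 0.37 and 0.48 over azurophil-rich cycling cells, and the chemokine and monocyte identity lists lie below 0 in the first comparison and above 0 in the second.

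Against the azurophil-rich cycling cells far fewer genes were past the fold. Of 5544 genes compared in the naive library 74 were higher (1.33%) and 37 lower (0.667%), 2% in all, and of 5709 in the CTX library 72 were higher (1.26%) and 36 lower (0.631%), 1.89% in all, with 43 higher and 22 lower in both libraries of 5431 genes compared in both. The higher genes included several known from differentiated monocytes. Ccl6, a chemokine of myeloid cells, was at 445 and 334 CPM in naive and CTX members against 105 and 96.5 CPM. Fgr, a Src-family kinase of myeloid cells, was at 86.8 and 73.2 CPM against 18.3 and 19.8 CPM, Plbd1 at 171 and 182 CPM against 45.9 and 52.7 CPM, and Thbs1, the matrix protein thrombospondin 1, at 56.0 and 39.5 CPM against 15.3 and 10.7 CPM. Apart from the 4 azurophil genes of the rule, the lower genes included Ms4a3, a marker of granulocyte and monocyte progenitors, at 1.43 and 2.33 CPM against 57.6 and 115 CPM. Igfbp4 was at 19.2 and 20.6 CPM against 58.9 and 72.5 CPM, Lbp at 15.1 and 20.3 CPM against 54.0 and 60.1 CPM, and Myb, a progenitor transcription factor, at 12.01 and 15.6 CPM against 29.6 and 37.6 CPM. Both classes were cut on the 4 azurophil genes, and how far other genes, higher or lower, follow that cut was not tested.

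For the monocyte identity genes the members sat between the other classes. In all of the following the first value is the naive and the second the CTX library. The 15 monocyte identity genes had medians of -0.46 and -0.53 over non-cycling cells and 0.57 and 0.51 over azurophil-rich cycling cells (14 genes compared in each). Itgam went from 51.9 and 54.1 CPM in azurophil-rich cycling cells through 115 and 100.6 CPM in members to 222 and 205 CPM in non-cycling cells. Cx3cr1, the fractalkine receptor gained by maturing monocytes, went from 19.6 and 14.4 CPM through 49.1 and 39.7 CPM to 102 and 93.2 CPM. Lyz2 went from 13100 and 15436 CPM through 22734 and 23365 CPM to 38911 and 39865 CPM. Irf8, a transcription factor of monocyte progenitors, ran the other way, from 665 and 641 CPM through 481 and 527 CPM to 381 and 377 CPM. Ly6c2 differed little, at 860 and 885 CPM, 816 and 772 CPM, and 778 and 726 CPM. The cholesterol synthesis list did not follow this order, with summed levels of 558 and 669 CPM in members against 366 and 332 CPM in non-cycling and 464 and 578 CPM in azurophil-rich cycling cells. Its genes had medians of 0.996 and 1.18 over non-cycling cells, where 7 of 8 and 10 of 10 genes were above 0, 4 and 6 were past the fold upward and 1 in the naive library was past it downward. Over azurophil-rich cycling cells their medians were 0.44 and 0.38, with 6 of 7 and 9 of 10 genes above 0 and none past the fold.

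The members leaned to the G2/M side of the cycle. With each cell thinned to 5000 UMIs, 348 naive members had a median of 9 UMIs of the S-phase list and 68 of the G2/M list, and 468 CTX members had 9 and 76. Azurophil-rich cycling cells had medians of 21 and 46 UMIs in the naive library and 20 and 52 in the CTX library, and non-cycling cells 3 and 8 and 3 and 9. More S-phase than G2/M UMIs were found in 8.62% of naive members (5.89 to 12.1) and 10.5% of CTX members (7.85 to 13.6), against 27.9% and 27.2% of azurophil-rich cycling cells. Of the members, 22 naive and 11 CTX cells lay within 2 UMIs of equality. The G2/M share does not mark cycling by itself, since 92.1% and 91.7% of non-cycling cells also had more G2/M UMIs, at far lower counts. Over azurophil-rich cycling cells none of 39 S-phase genes in the naive library or 41 in the CTX library was above 0, with medians of -0.66 and -0.51. Examples were Cdca7, at 26.4 and 31.1 CPM against 74.0 and 76.6 CPM, and Ung, a uracil glycosylase, at 9.68 and 9.92 CPM against 28.3 and 26.2 CPM. In the same comparison 47 of 50 G2/M genes (naive) and 50 of 51 (CTX) were above 0. Mki67 and Top2a peak late in the cycle, and the limit of 2 UMIs that chose both cycling classes was applied at the unequal depths given above. The part of that limit and of depth in this difference was not tested.

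**Figure D2:**
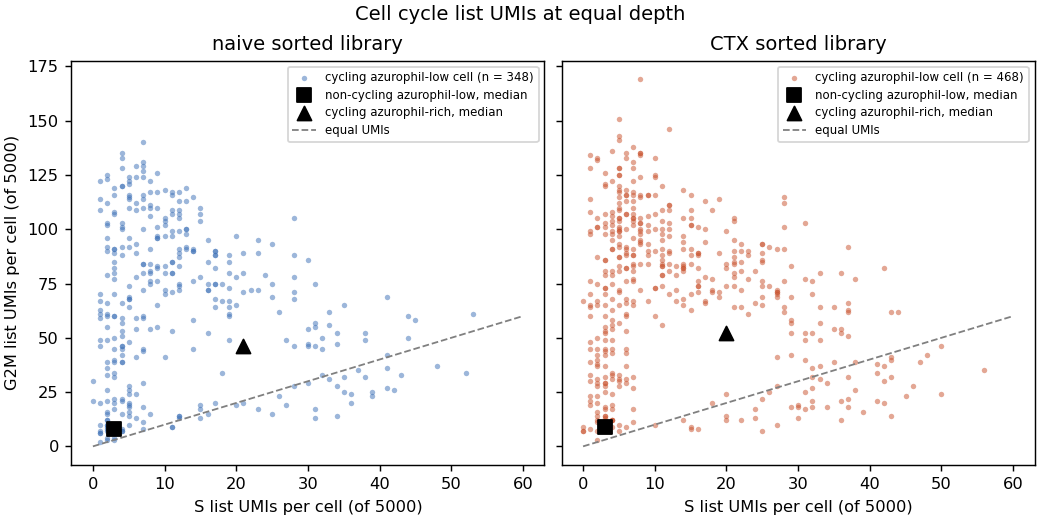
UMIs of the S-phase list (x axis) and of the G2/M list (y axis) per member after thinning to 5000 UMIs, 348 naive and 468 CTX cells, with the medians of the other 2 classes as squares and triangles and a dashed line at equality. Most members lie above the line, around medians of 68 and 76 G2/M UMIs.

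The question of the sorted pair was how CTX changes BM monocytes, and in the members most genes past the fold were lower in CTX, inflammatory genes foremost. Of 5659 genes compared between CTX and naive members, 5 were at least 1 log2 unit higher (0.0884% called) and 28 at least 1 log2 unit lower (0.495% called), 0.583% in all. Of these 33, 16 passed the fold in all 13 alternatives tried. The median of all genes was 0.03.

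Cxcl2, a neutrophil-attracting chemokine, was the most changed gene apart from the immunoglobulins. Naive members had 384 CPM and CTX members 21.3 CPM (log2 -4.17, -4.42 to -3.93), and at 5000 UMIs per cell it was found in 49.1% of naive and 5.77% of CTX members. Ccl3, a ligand of CCR1, stood at 662 and 298 CPM (log2 -1.15, -1.23 to -1.07), Ccl4, its close relative, at 54.0 and 22.9 CPM (log2 -1.24, -1.52 to -0.95), and Ccl2, the main ligand of CCR2, at 232 and 98.6 CPM (log2 -1.24, -1.37 to -1.10). Ccl6 and Ccl9 were lower by less than the fold, at 445 and 334 CPM and at 316 and 260 CPM. Thus 4 of the 6 chemokine ligands compared were past the fold and none of the 6 was above 0, with a median of -1.18. The 30 naive and 49 CTX members with more S-phase than G2/M UMIs did not follow for every ligand. There Ccl6 was at 199.7 and 280.2 CPM (log2 0.49, 0.14 to 0.85), against -0.48 in members with more G2/M UMIs. Ccl4 was also higher in CTX there (log2 1.85, 0.86 to 2.99), against -1.71, but on 10 UMIs in 3 naive cells and 53 UMIs in 6 CTX cells, with 29 of the 53 in 1 cell. Cxcl2 was at -2.29 and -4.67 and Ccl3 at -1.23 and -1.13 in the S-phase and G2/M groups. In the same order Ccl2 was at -0.21 (-0.68 to 0.27) and -1.36, Ccl9 at -0.008 and -0.30, and the summed ligands at -0.52 and -1.05. The ligand Cxcl1 was not compared, with 7.89 CPM in naive members and no UMI in CTX members. Among chemokine receptors Ccrl2, a binding receptor for chemerin, was at 93.2 and 27.0 CPM (log2 -1.79), while Ccr2 was at 889 and 912 CPM (log2 0.04, -0.02 to 0.09).

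Genes that respond to NF-kB and restrain it were lower together with the chemokines. Nfkbia, which encodes the inhibitor IkB alpha, had 493 CPM in naive members and 120 CPM in CTX members (log2 -2.04, -2.16 to -1.93), in 83.6% and 43.0% of cells at 5000 UMIs. Tnfaip3, the ubiquitin-editing inhibitor A20, stood at 77.3 and 17.4 CPM (log2 -2.15, -2.46 to -1.86), and Nfkbiz at 140 and 44.9 CPM (log2 -1.64, -1.83 to -1.45). Tnf, the cytokine itself, was at 54.1 and 20.3 CPM (log2 -1.42, -1.72 to -1.12). The subunit gene Nfkb1 was at 137 and 147 CPM (log2 0.10, -0.04 to 0.24) and Sod2 at 98.1 and 91.7 CPM. Of 9 NF-kB list genes compared, 4 were past the fold downward and 2 were above 0, with a median of -0.79 that ran from -1.51 (azurophil UMIs below 0.05%) to -0.47 (no filter on low genes) over the alternatives. Clec4e, the receptor Mincle, was at 79.1 and 23.04 CPM (log2 -1.78), and Dusp2, a phosphatase of MAP kinases, at 26.5 and 11.1 CPM (log2 -1.26).

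The 200 bases before the RefSeq start are shown for the most changed chemokine and for Nfkbia, with kB letters in capitals, which are GGG, any 2 bases and TTTCC on either strand. Cxcl2 lies on the plus strand of chr5 (RefSeq gene 90903899 to 90905938, window chr5:90903699-90903898) and Nfkbia on the minus strand of chr12 (RefSeq gene 55489409 to 55492647, window chr12:55492648-55492847), in GRCm38.p6. The GENCODE Cxcl2 gene starts 28 bases before the RefSeq start, inside the window.
Cxcl2: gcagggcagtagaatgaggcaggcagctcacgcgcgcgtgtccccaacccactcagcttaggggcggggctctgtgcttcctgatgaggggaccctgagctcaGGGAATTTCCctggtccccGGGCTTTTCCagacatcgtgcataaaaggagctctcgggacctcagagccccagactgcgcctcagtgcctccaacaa
Nfkbia: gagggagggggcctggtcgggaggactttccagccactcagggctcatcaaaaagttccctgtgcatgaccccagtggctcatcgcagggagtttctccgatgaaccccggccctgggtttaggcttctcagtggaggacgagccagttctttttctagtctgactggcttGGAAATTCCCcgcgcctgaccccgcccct
The Cxcl2 window held 2 matches, beginning 97 and 78 bases before the start, and the Nfkbia window held 1 at 29 bases. Of all 32851 promoters 1.63% held a match between 250 bases before and 50 after the start. No share is given for the chemokine and NF-kB lists, of which 53.8% and 78.6% of genes had a promoter.

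**Figure D3:**
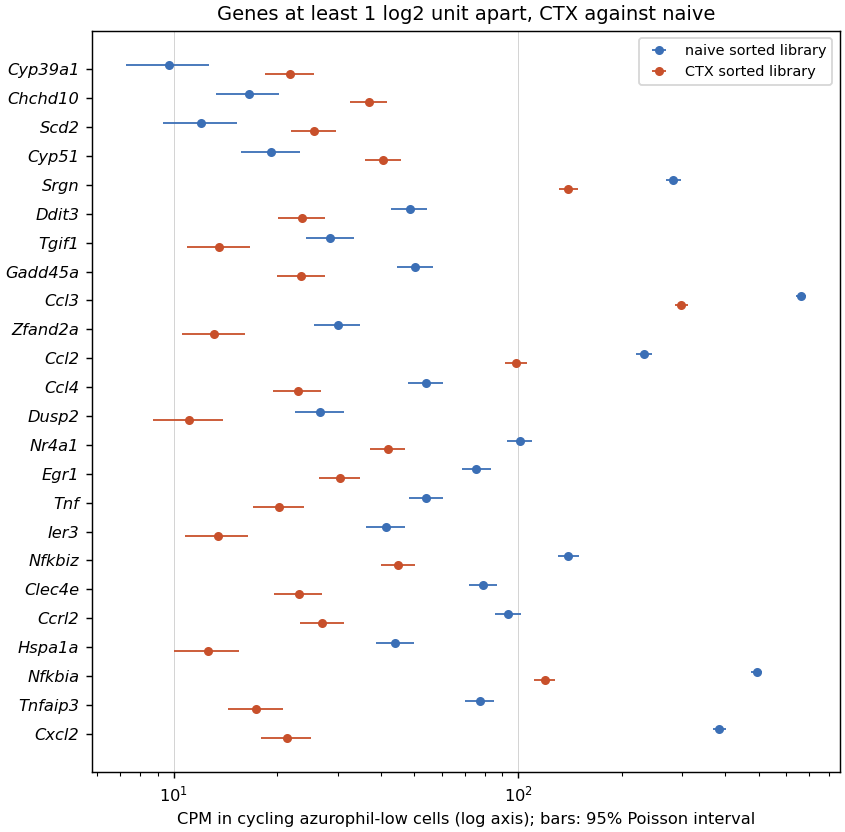
Level in CPM (log x axis) of 24 genes past the fold between naive and CTX members, leaving out immunoglobulins, near-copy genes, Cd74 and a gene not reported here, with exact Poisson intervals. Cxcl2 shows the widest gap, from 384 to 21.3 CPM, and 4 genes lie higher in CTX members.

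Immediate early and stress genes were also among the lower calls. Egr1, a transcription factor induced within minutes of a stimulus, was at 75.7 CPM in naive and 30.3 CPM in CTX members (log2 -1.32, -1.57 to -1.08), Ier3 at 41.2 and 13.4 CPM (log2 -1.62, -1.98 to -1.27), and Nr4a1, an orphan nuclear receptor, at 100.95 and 41.9 CPM (log2 -1.27, -1.48 to -1.06). Junb at 855 and 489 CPM and Atf3 at 1063 and 611 CPM were within the fold. Of 12 immediate early genes compared, 2 were past the fold and 1 was above 0, with a median of -0.32. Hspa1a, the inducible HSP70, was at 43.9 and 12.5 CPM (log2 -1.81, -2.18 to -1.45), while the constitutive Hspa8 was at 2059 and 1872 CPM (log2 -0.14). Ddit3 (CHOP), Gadd45a, Zfand2a, Tgif1 and Srgn were lower by log2 -1.03, -1.10, -1.19, -1.07 and -1.02. Nme2, Ftl1-ps1 and CAAA01147332.1 were also past the fold downward, but each can share reads with a near-identical copy or an overlapping neighbour, so their values are uncertain. Cd74 was lower by log2 -1.09, with 73 of its naive UMIs in 1 cell, and stood at log2 0.049 without the immunoglobulin-rich cell.

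The inflammatory genes were lower in the other classes of the sort as well. Of 5373 genes compared in non-cycling cells 2 were higher in CTX (0.0372%) and 45 lower (0.838%), 0.875% in all, and of 5454 in azurophil-rich cycling cells 4 were higher (0.0733%) and 20 lower (0.367%), 0.44% in all. Cxcl2 was at 1562 CPM in naive and 87.8 CPM in CTX non-cycling cells (log2 -4.15) and at 212 and 11.3 CPM in azurophil-rich cycling cells. Summed chemokine ligands were at 2123 and 1055 CPM in members (log2 -1.01, -1.05 to -0.97), at 4892 and 2196 CPM in non-cycling cells (log2 -1.16) and at 1053 and 512 CPM in azurophil-rich cycling cells (log2 -1.04). Across 5020 genes compared in both members and non-cycling cells, the CTX over naive ratio of 1 gene differed by at least 1 log2 unit and of 53 genes by at least 0.5.

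Genes of sterol and fatty acid metabolism were among the few higher in CTX members. Cyp51, the lanosterol demethylase, had 19.2 CPM in naive members and 40.6 CPM in CTX members (log2 1.08, 0.75 to 1.42). Scd2, a fatty acid desaturase, was at 12.01 and 25.5 CPM (log2 1.09, 0.67 to 1.52), and Cyp39a1, an oxysterol hydroxylase, at 9.68 and 21.7 CPM (log2 1.17, 0.71 to 1.64). Fdps, which makes farnesyl diphosphate, was just inside the fold at 71.2 and 139 CPM (log2 0.97, 0.79 to 1.14), and Sqle, squalene epoxidase, at 17.0 and 34.9 CPM (log2 1.03 without and below 1 with the added CPM). Insig1, a brake on the pathway, was at 62.6 and 55.9 CPM (log2 -0.16, -0.38 to 0.05). Of 10 cholesterol list genes compared 2 were past the fold upward and 8 were above 0, with a median of 0.49 against 0.03 for all genes. Chchd10, also past the fold upward, owed 63 UMIs to 1 CTX cell and was found in 6.90% of naive and 6.20% of CTX members at 5000 UMIs. With 5 CPM added to each side no gene was past the fold upward, since all 5 are low in abundance.

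Cell cycle genes differed little between CTX and naive members. None of 51 G2/M or 34 S-phase genes compared was past the fold, with medians of 0.16 and 0.13 and with 48 and 28 genes above 0, where 58.4% of all genes were above 0. Anln, an actin-binding protein of the cleavage furrow, had the highest ratio of the G2/M list, at 57.02 and 79.1 CPM (log2 0.47, 0.27 to 0.68). Hells, a chromatin remodeller of S phase, was at 29.1 and 43.2 CPM (log2 0.57, 0.29 to 0.86), and Pcna, the sliding clamp of DNA polymerase, was lower, at 111 and 87.7 CPM (log2 -0.34, -0.50 to -0.17). Of 24 replication histone genes none was past the fold, and 13 were above 0. Hist1h2ap, at 6476 and 3319 CPM (log2 -0.96, -0.99 to -0.94), and Hist1h1b, at 648 and 872 CPM (log2 0.43), went in opposite directions. Histone genes of a cluster are near copies of each other, and their values are uncertain.

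Of 16 p53 targets 8 were compared, and other than Fas none of these was higher in CTX members. The other 8 did not reach the limits for a comparison. Cdkn1a, the CDK inhibitor p21, had 176 CPM in naive members and 127 CPM in CTX members (log2 -0.47, -0.60 to -0.34), Pmaip1 (Noxa) 41.4 and 25.7 CPM (log2 -0.69, -0.98 to -0.40) and Bbc3 (Puma) 33.9 and 21.6 CPM (log2 -0.65, -0.97 to -0.33). Fas was the 1 gene of the 8 compared that was above 0, at 14.9 and 22.8 CPM (log2 0.61, 0.22 to 1.01), and the median was -0.31, from -0.44 to -0.12 over the alternatives. The antiapoptotic Mcl1 was at 604 and 455 CPM (log2 -0.41), and 1 of 7 BCL2 family genes was above 0, with a median of -0.41. Of 10 interferon genes 1 was above 0, with a median of -0.29 and none past the fold. Monocyte identity genes had a median of -0.08 with 6 of 15 above 0. Chil3, a chitinase-like secreted protein, was at 273 and 469 CPM (log2 0.78, 0.69 to 0.87). S100a9, a calcium-binding alarmin, was at 569 and 984 CPM (log2 0.79, 0.73 to 0.85), with 545 and 495 UMIs in the single highest cell of each library. Neither stands for its list, since of 8 S100 genes 4 were above 0 (median 0.03) and of 12 neutrophil-associated genes compared 8 were (median 0.09), with none past the fold in either list.

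**Figure D4:**
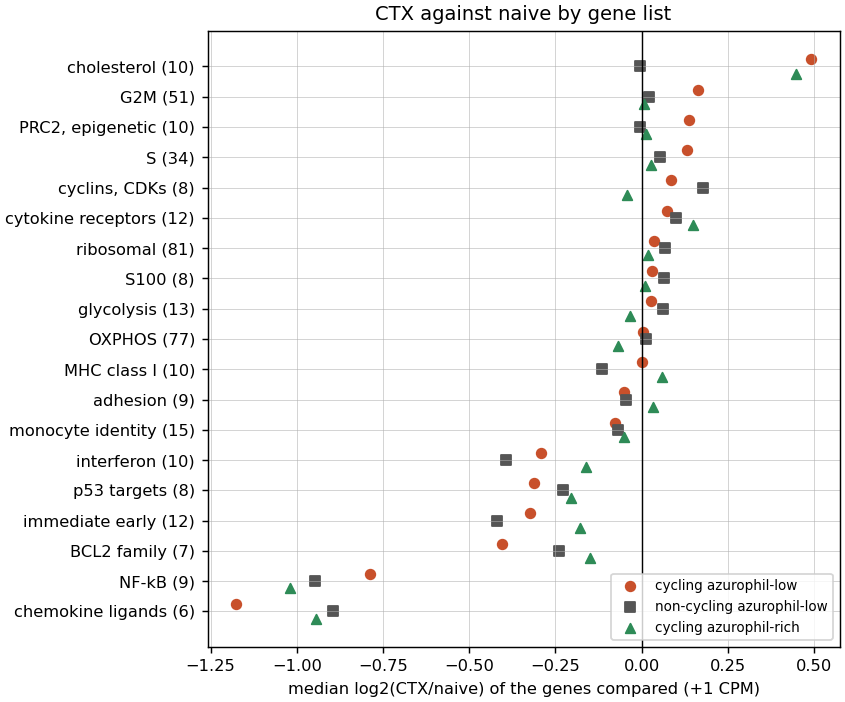
Median log2 ratio of CTX over naive (x axis) by gene list (y axis) in members, non-cycling azurophil-low cells and azurophil-rich cycling cells. The chemokine list lies at -1.18 in members and below 0 in each class, and the cholesterol list lies at 0.49 in members.

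Whole BM gave a second view of cycling monocytes without a sort. Cells thinned to 3000 UMIs were taken as monocytes with the same granule and class II limits and at least 3 UMIs of Ly6c2, at least 2 of Csf1r and Ccr2 together, fewer than 2 of the B cell genes Cd79a, Cd79b and Ms4a1 and fewer than 2 of Siglech, and as cycling from 1 UMI of Mki67 or Top2a. At this depth 1 UMI was also found in 6 of 39 mature neutrophils of naive whole BM (15.4%, 5.86 to 30.5), 4 of 105 on D2 (3.81%, 1.05 to 9.47) and 8 of 216 on D7 (3.70%, 1.61 to 7.17). This background share was highest in naive whole BM, but the intervals overlap, and a difference between the libraries was not tested. From whole BM the gate kept 190 naive cells, 21 on D2 and 236 on D7, and 486 and 566 cells of the naive and CTX sort, which is 27.0% and 23.1% of the sorted cells at that depth. Cycling cells were 52 of 190 in naive whole BM (27.4%, 21.2 to 34.3), 9 of 21 in D2 CTX (42.9%, 21.8 to 66.0) and 62 of 236 in D7 CTX (26.3%, 20.8 to 32.4). Against naive whole BM this share had a log2 ratio of -0.06 (-0.61 to 0.50) on D7 and of 0.65 (-0.56 to 1.68) on D2. Both use the same naive library, and neither direction was stable. At 2000 UMIs the D2 share was 17.6% (3 of 17 cells) against 20.5% in naive, and the D7 ratio was 0.10 (-0.62 to 0.84) with 2 UMIs required and 0.55 (-0.25 to 1.38) with at least 5 UMIs of Ly6c2. In the sorted pair the gated share was 21.2% and 28.3% (log2 0.42, 0.05 to 0.79), and with 2 UMIs required 15.02% and 19.1% (log2 0.35, -0.10 to 0.79).

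The summed chemokine and NF-kB levels, which were lower in CTX in the sorted pair, differed by less than their counting error between the D7 CTX and naive whole BM libraries, where single genes went both ways. In gated cycling cells Cxcl2 was at 26.0 and 93.3 CPM in the whole BM pair (log2 1.84, 0.96 to 2.83), against 509 and 12.3 CPM in the naive and CTX sort (log2 -5.38, -6.00 to -4.81). Nfkbia was at 120 and 88.6 CPM in whole BM (log2 -0.44, -0.99 to 0.11) and at 546 and 125 CPM in the sort (log2 -2.12). Ccl3 was at 84.1 and 206 CPM in whole BM (log2 1.29, 0.78 to 1.83) and at 748 and 313 CPM in the sort (log2 -1.26). Ccl6, the most abundant chemokine gene of these whole BM cells, was lower in D7 CTX, at 615 and 410 CPM (log2 -0.58, -0.83 to -0.34), and was at 481 and 382 CPM in the sort (log2 -0.33, -0.48 to -0.19). Summed chemokine ligands were at 1087 and 1107 CPM in whole BM (log2 0.03, -0.14 to 0.19) and at 2380 and 1188 CPM in the sort (log2 -1.003, -1.08 to -0.93). D2 CTX whole BM had 1676 CPM, so the naive sorted cells stood above the other 4 libraries. Summed NF-kB genes were at 649 and 655 CPM in whole BM (log2 0.01, -0.20 to 0.23) and at 1344 and 660 CPM in the sort (log2 -1.03, -1.12 to -0.93). The 10 neutrophil genes summed to 384 and 978 CPM in the gated whole BM cells (Retnlg highest, at 156 and 464 CPM) and to 80.9 and 78.7 CPM in the gated sorted cells. In the same gated whole BM cells the 8 erythroid genes summed to 587 and 19.0 CPM. The part of neutrophil and erythroid RNA, of the sort and of the handling of each library in these differences was not tested.

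The cholesterol synthesis list was higher in D7 CTX than in naive whole BM and in the CTX than in the naive sort. The summed list had 326 and 701 CPM in the naive and D7 whole BM libraries (log2 1.10, 0.84 to 1.37), 186 CPM on D2 (log2 -0.81, -1.44 to -0.22), and 575 and 678 CPM in the sort (log2 0.24, 0.12 to 0.36). Fdps was at 36.0 and 101.2 CPM in naive and D7 CTX whole BM (log2 1.49, 0.72 to 2.33), on 18 and 64 UMIs, and Cyp51 at 10.0 and 45.9 CPM (log2 2.20, 0.81 to 3.92), on 5 and 29 UMIs.

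**Figure D5:**
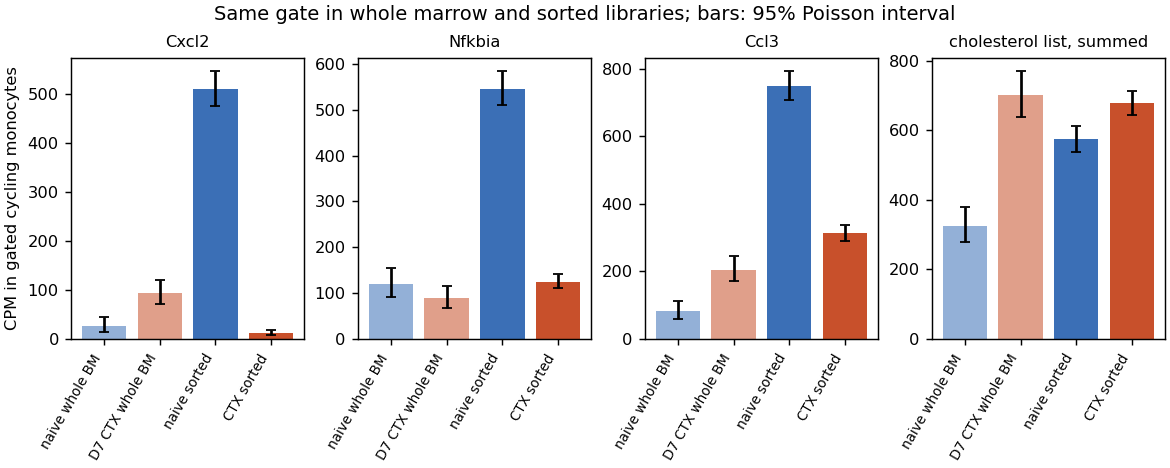
Level in CPM of Cxcl2, Nfkbia, Ccl3 and the summed cholesterol list in gated cycling monocytes of naive whole BM, D7 CTX whole BM, the naive sort and the CTX sort, with exact Poisson intervals. Cxcl2 lies at 26.0 and 93.3 CPM in the whole BM pair and at 509 and 12.3 CPM in the sorted pair, and the cholesterol sum is higher in the CTX library of each pair.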

How the data were processed

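Single-cell RNA libraries (10x Genomics 3' V3) were read as the UMI counts per gene and barcode that the authors deposited, with no normalization. The submitters' processing notes name Cell Ranger 3.1, mm10 and Seurat 5.0. Barcodes under 200 genes, or with 20% or more mitochondrial UMIs, were removed. For each class and library, UMIs of all its cells were added up per gene and divided by their total (CPM). Intervals of CPM were exact Poisson, those of log2 ratios exact conditional. Those of shares were Clopper-Pearson. Depth per kept cell had a median of 10299 UMIs (naive sort) and 9694 UMIs (CTX sort). Genes were compared and called past the fold as given in the report. Mature neutrophils for the stray UMI check had Il1b, Retnlg and at least 5% S100a8 and S100a9 UMIs with less than 1% specific granule UMIs. Doublets were not removed in the reported values. As an alternative, the highest Scrublet scores were left out, since Scrublet's own limit marked 0.793% and 0.663% of cells. Other alternatives changed the added CPM, the filter on low genes, the scaling, the weighting of cells, the cell filter, the rule's limits and the depth. Promoter sequences came from RefSeq (GRCm38.p6).

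The members, gene lists and named genes were chosen with earlier results of these data known. For CTX over naive the 10 highest and 10 lowest ratios and all genes past the fold were named, for members over each other class the 10 highest and 10 lowest by the mean of both libraries, for the difference between members and non-cycling cells the 5 highest and 5 lowest, and for each list up to 4 genes of the largest ratio. Other list genes named in the text were chosen after their values were seen. The counting code was tested on simulated data. Python 3.11.15, numpy 2.4.6, scipy 1.17.1, pandas 2.3.3, scanpy 1.11.5 and matplotlib 3.10.9 were used. No replicate test was made, because each condition had 1 library, and cells were classed by the rule's limits and not by clustering. Values of some genes are not reported here. Flow cytometry, chromatin and patient data were not analysed here.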

Additional observations from a re-analysis of the deposited data

Results flagged for a closer look

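In 4 results the CTX over naive log2 ratio had opposite signs in the members and in non-cycling azurophil-low cells of the same libraries, with both counting intervals clear of 0. Camk2d, a calcium-dependent kinase, was at 0.58 in members (17.4 and 26.0 CPM) and at -0.18 in non-cycling cells (48.3 and 42.5 CPM). Tuba1c, an alpha tubulin, was at 0.23 (77.5 and 91.2 CPM) and at -0.54 (28.5 and 19.6 CPM). Hist1h2ae, a replication histone with near copies, was at -0.10 (786 and 731 CPM) and at 0.66 (27.2 and 42.9 CPM). The summed cholesterol list was at 0.26 in members (558 and 669 CPM) and at -0.14 in non-cycling cells (366 and 332 CPM), while azurophil-rich cycling cells were at 0.32. In non-cycling cells Fdps, a gene of that list, was at log2 0.86. With 1 library per condition none of these differences was tested.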

How the results depend on the processing

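No paired analysis was possible because each condition had 1 library, and for the same reason leaving out a replicate was not possible. Of 172 alternative values for the main quantities 128 kept their direction and size. The limits are the single library per condition, depth, which sets who reaches 2 UMIs, and the low abundance of the genes higher in CTX. Causes of the moved values were not tested beyond what each setting changes by construction.

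The member share was 26.0% in naive and 27.3% in CTX cells with a limit of 1 UMI of Mki67 and Top2a, 16.2% and 17.3% with 3 UMIs, 13.2% and 13.6% with azurophil UMIs below 0.05%, 23.5% and 26.5% below 0.2%, 15.03% and 16.03% at 5000 UMIs, 12.05% and 14.1% at 3000 UMIs, and 23.99% and 26.9% of azurophil-low cells. For CTX over naive members, 0 genes were higher with 5 CPM added, 3 with the mean of the cells' CPM and 3 in members with 10 or more Mki67 and Top2a UMIs, and without the filter on low genes 75 were higher and 114 lower of 14210. The last but one of these, and the following immunoglobulin settings, were chosen after seeing the data. Without the immunoglobulin-rich cell Cd74 turned to 0.049 and Ighm to 0.013, Ighm was at 0.092 in members with 10 or more Mki67 and Top2a UMIs, and Cd74 was at 0.091 in members with at least 2 UMIs of Csf1r and Ccr2. Without the filter, members over non-cycling cells had 870 higher and 410 lower genes (naive) and 914 and 397 (CTX), and members over azurophil-rich cycling cells 298 and 141 (naive) and 213 and 127 (CTX). With 5 CPM added the latter had 22 lower genes (naive) and 47 higher genes (CTX).

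The cycling share of whole BM monocytes was 20.5% (naive), 17.6% (D2 CTX, 3 of 17 cells) and 17.4% (D7 CTX) at 2000 UMIs, and 15.8% (naive), 16.9% (D7 CTX), 15.02% (naive sort) and 19.1% (CTX sort) with 2 UMIs required. Without the azurophil limit it was 38.8% (naive), 36.3% (D7 CTX), 28.7% (naive sort) and 37.8% (CTX sort). With at least 5 UMIs of Ly6c2, D7 whole BM over naive had a log2 ratio of 0.55 (-0.25 to 1.38). In the 150 bases before the start, TTTGAA was in 30% of G2/M and 9.07% of all promoters and CCAAT in 24.5% of all promoters. Over the alternatives the list medians of CTX over naive members ran from -1.33 to -0.88 for chemokines, -1.51 to -0.47 for NF-kB genes, 0.36 to 0.51 for cholesterol genes, -0.44 to -0.12 for p53 targets, 0.08 to 0.37 for S-phase genes, 0.10 to 0.17 for G2/M genes and -0.32 to -0.26 for interferon genes.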
